A study of Saccharomyces cerevisiae with 2 samples.

Results

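The members described here are 35 genes that drive or mark the division cycle of budding yeast, 24 regulators and 11 histone genes, among 6142 named rows of the deposited table. They were chosen by gene name, with earlier results of these data known. Each of the 35 had a row and passed the minimum mean of 50 normalized reads that 5973 rows reached. RNA was sequenced from cells of the haploid strain BY4741, of mating type a, that had received 2.5 mM paraquat for 8 h in rich glucose medium, and from untreated cells of the same strain and medium. Both cultures are labelled as mid-log. Paraquat is a herbicide that takes electrons from cellular enzymes and passes them to oxygen, which forms superoxide. There was 1 library per group, so differences between the libraries have no replicate check, and the label of the untreated culture gives no time, so time in culture and paraquat cannot be told apart.

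In budding yeast the kinase Cdc28 runs the division cycle with cyclins that come and go. The G1 cyclin Cln3 relieves the repressor Whi5, which lets the transcription factors SBF (Swi4 with Swi6) and MBF (Mbp1 with Swi6) switch on the late G1 genes, among them other G1 cyclins and the S phase cyclins. Histone genes follow in S phase, then the genes of mitosis, and at the exit from mitosis Swi5 switches on genes that peak between M and G1. The phases used here are those of known peak expression in wild-type cells. Because the cultures were not synchronized, a transcript's level joins the share of cells in that phase and the RNA per cell, and these cannot be told apart.

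The library of paraquat-treated cells held 165264107 reads on named genes and that of untreated cells 164909400. These read numbers take the step of each column as 1 read, which the files do not state. Values are normalized reads, each gene's reads divided by a scaling factor per library, and every log2 ratio is paraquat over untreated. Intervals on ratios are exact binomial 95% intervals of the read split and cover counting error only. Over all 5973 genes the median log2 ratio was -0.0029, with 49.7% of genes above 0 and 50.3% below it. Scaling to total gene reads would add 0.26 to every log2 ratio, after which 78.6% of genes lay above 0, so directions below are relative to the median gene. The median log2 ratio also ran with expression, at 0.27 in the lowest and -0.31 in the highest of 10 classes of mean level. In the check of the strain label, the 7 a cell markers summed to 229054 normalized reads in paraquat and 317853 in untreated cells, and the 3 alpha cell markers past the minimum mean summed to 7841 in paraquat and 6527 in untreated cells. The a cell markers ran from AGA2 (-1.35), a subunit of the a-agglutinin, to STE6 (-0.11), the exporter of the a pheromone, on the log2 ratio scale, with AGA2 and BAR1 (-1.12), a protease that degrades alpha pheromone, more than 2-fold lower. The 3 alpha cell markers ran from SAG1 (0.13), the alpha-agglutinin, to STE3 (0.71), the receptor of the a pheromone. The sets overlapped in level. SAG1 had 5205 normalized reads in paraquat and 4742 in untreated cells. AGA2 had 3466 in paraquat and 8818 in untreated cells, and the a cell marker ASG7 had 1898 in paraquat and 2842 in untreated cells. MF(ALPHA)1, the main gene of the alpha pheromone, stood at 42 normalized reads in paraquat and 55 in untreated cells, under the minimum mean. Of the markers deleted in this strain, LEU2, MET17 and URA3 were not analysed here, and HIS3, of which BY4741 carries a partial deletion, had 12482 normalized reads in paraquat and 17852 in untreated cells.

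Upstream sequences are shown for 2 members that stood apart from 0 and whose controlling sites are short and well known. They are from the RefSeq R64 genome, 100 bases each, on the strand of the gene and 5′ to 3′, and the build used by the authors is not given in the sources used here. CLB6 had the highest and PCL1 the second highest log2 ratio of the members. Capitals mark matches on either strand to ACGCGT, the MCB box of MBF, in CLB6 (chrVII:706852-706951, minus strand), and to CNCGAAA, the SCB box of SBF, in PCL1 (chrXIV:87547-87646, plus strand). The CLB6 stretch runs from base 450 to base 351 before the start codon and the PCL1 stretch from base 350 to base 251.

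CLB6: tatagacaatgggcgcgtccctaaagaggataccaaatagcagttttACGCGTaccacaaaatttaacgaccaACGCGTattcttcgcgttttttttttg
PCL1: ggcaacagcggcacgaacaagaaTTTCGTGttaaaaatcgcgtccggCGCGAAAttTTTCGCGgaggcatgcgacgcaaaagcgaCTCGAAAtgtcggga

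Over the 600 bases before the start codon, ACGCGT was found in 6.31% of 6018 protein-coding genes and CNCGAAA in 24.7%. The CLB6 window held 2 MCB matches and the PCL1 window 4 SCB matches. The windows were set for each gene and hold all matches within its 600 bases, so these counts cannot be set against the shares above. Among the 6 members that peak at G1/S, 4 held an SCB match (CLN1, CLN2, PCL1 and PCL2) and 1 an MCB match (CLB6). CLN1, CLN2 and PCL2 held 2 SCB matches each, at log2 ratios of -0.02, 0.05 and 0.06. CLB5 held neither box, at 0.32. Outside G1/S the MCB letters stood before SWI4, CDC6, HTA2 and HTB2. HTA2 and HTB2 share the same site, which lies in the 699 bases between them. The SCB letters were found before 5 of 9 members of S, 3 of 8 of M/G1, 1 of 6 of G2/M and 2 of 6 with no phase. HTA1 and HTB1 lie 817 bases apart and HHT2 and HHF2 676, so their 600-base stretches overlap. The SCB matches within each pair are the same sites, so the 5 of S are not all separate. These letters describe the windows and do not show which factor was bound.

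In paraquat-treated cells 5 of 6 late G1 members lay above the median gene. Below it lay 4 of 6 members of G2/M (all but CLB3 and CLB4) and 6 of 8 of the M to G1 interval. Histone genes ran from -0.35 to 0.03 on the log2 scale. The highest ratios were those of CLB6, PCL1 and CLN3, and the lowest those of FAR1, ASH1 and CDC20. None of the 35 members differed 2-fold, where 4.60% of all genes did, 3.08% higher and 1.52% lower. At a lower threshold, a log2 ratio at least 0.322 from 0, 3 members were higher (CLB6, PCL1 and CLN3), against 17.1% of all genes. On the other side 8 were lower (FAR1, ASH1, CDC20, PCL9, SWI5, CLB2, HHT1 and HTB1), against 17.0%. Together these are 31.4% of the members beside 34.1% of all genes, a share near the background. Scaled to total gene reads the split became 8 higher and 3 lower, where 41.4% of all genes were higher and 5.98% lower. Centred on the median of each gene's class of mean level it was 4 higher and 6 lower. At 1.5-fold, 2 members were higher, against 7.75% of all genes, and 3 lower, against 5.88%, which makes 14.3% of the members beside 13.6% of all genes.

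The median absolute log2 ratio was 0.18 over the 35 members and 0.22 over all genes. By phase, the median log2 ratio was 0.19 at G1/S (6 genes), -0.06 in S (9 genes), -0.35 at G2/M (6 genes) and -0.20 at M/G1 (8 genes), and -0.12 over the 6 members given no phase. The difference between the medians of G1/S and G2/M was 0.53, a value that no scaling of the libraries alters. Without the member farthest from 0 in each phase it was 0.32, and with CLB3 and CLB4 left out, SWI4 counted at G1/S and PCL2 at M/G1 it was 0.69. The p-values deposited by the authors come from a test of 1 library against 1. Such a test has no replicates to measure the spread between cultures, so its p-values are not used here.

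**Figure D1:**
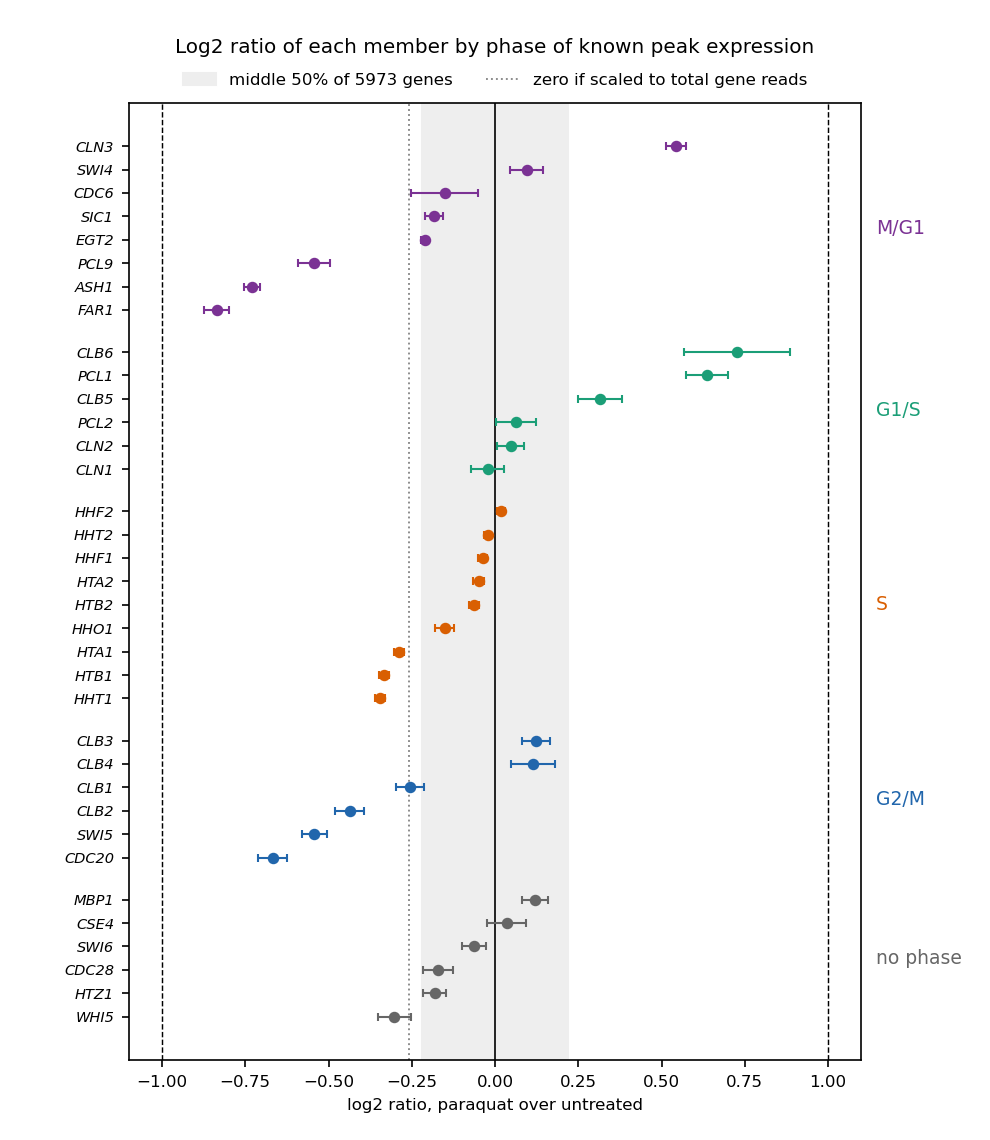
Log2 ratio of paraquat over untreated for each of the 35 members, by phase of known peak expression, with 95% counting intervals as bars. The grey band holds the middle 50% of 5973 genes, dashed lines mark 2-fold and the dotted line marks where 0 would lie if libraries were scaled to total gene reads. CLB6 at 0.73 and FAR1 at -0.84 are the ends of the range.

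Among CLN3, WHI5 and the subunits of SBF and MBF, CLN3 lay farthest from 0. CLN3, whose product starts the switch, had 22778 normalized reads in paraquat and 15639 in untreated cells. It was 1.46-fold higher (1.43 to 1.49), above 91.2% of all genes. WHI5, whose product holds SBF in check, had 5836 normalized reads in paraquat and 7199 in untreated cells, a log2 ratio of -0.30 (-0.35 to -0.25).

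The subunits of SBF and MBF lay near the median gene. SWI4, the DNA-binding subunit of SBF, had 7012 normalized reads in paraquat and 6565 in untreated cells. MBP1, the DNA-binding subunit of MBF, had 11403 in paraquat and 10491 in untreated cells. SWI6, the subunit they share, had 11611 in paraquat and 12136 in untreated cells. Their log2 ratios were 0.10 for SWI4, 0.12 for MBP1 and -0.06 for SWI6, all within the middle 50% of genes, which ran from -0.22 to 0.22. CDC28, the kinase of all these cyclins and a transcript that varies little through the cycle, had 7651 normalized reads in paraquat and 8617 in untreated cells, a log2 ratio of -0.17.

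The 6 late G1 members, known targets of SBF and MBF, ranged from a log2 ratio of -0.02 to 0.73. CLN1 and CLN2 encode the G1 cyclins that trigger budding. CLN1 had 6600 normalized reads in paraquat and 6703 in untreated cells, and its interval from 0.95-fold to 1.02-fold includes equality. CLN2 had 10785 normalized reads in paraquat and 10443 in untreated cells, 1.03-fold higher (1.01 to 1.06). PCL1, a cyclin of the kinase Pho85 that acts beside Cln1 and Cln2 at bud emergence, had 5197 normalized reads in paraquat and 3341 in untreated cells. It was 1.56-fold higher (1.49 to 1.63). PCL2, another Pho85 cyclin of late G1, had 4478 in paraquat and 4287 in untreated cells, 1.04-fold higher (1.001 to 1.09). PCL1 thus made up 53.7% of PCL1 and PCL2 reads in paraquat and 43.8% in untreated cells, a shift of 9.92 percentage points and the widest of the 9 paralog pairs compared.

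CLB5 and CLB6 encode the B-type cyclins that fire replication origins. CLB6 had 897 normalized reads in paraquat and 542 in untreated cells, from 982 reads in paraquat and 495 in untreated cells, and was 1.65-fold higher (1.48 to 1.85). CLB5 had 4239 normalized reads in paraquat and 3406 in untreated cells, 1.24-fold higher (1.19 to 1.30). CLB6 was the member with the fewest reads in both libraries and lay in the lowest class of mean level, whose own median was 0.27, so its log2 ratio was 0.46 above that of genes at its level. The same difference was 0.60 for PCL1, 0.59 for CLN3 and 0.27 for CLB5. Of the 6 G1/S members, 5 lay above 0.

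Both inhibitors of Cdc28 among the members had ratios below the median gene, while SWE1, a kinase that inhibits Cdc28 and is no member, stood at 0.45 on the log2 scale. FAR1, whose product stops Cln cyclins when cells answer mating pheromone, had 9286 normalized reads in paraquat and 16580 in untreated cells. It was 1.79-fold lower (1.74 to 1.83), the lowest of the members, and 2.38% of all genes had a lower ratio. SIC1, whose product blocks the B-type cyclins until S phase begins, had 19551 normalized reads in paraquat and 22193 in untreated cells, 1.14-fold lower (1.11 to 1.16). Of these, FAR1 stayed below 0 when scaled to total gene reads, at -0.58, and SIC1 did not, at 0.08. FAR1 belongs to the pheromone pathway as well as to the cycle, and the 7 a cell markers were all below 0 as well, with a median log2 ratio of -0.58. Their part in the FAR1 value was not tested.

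**Figure D2:**
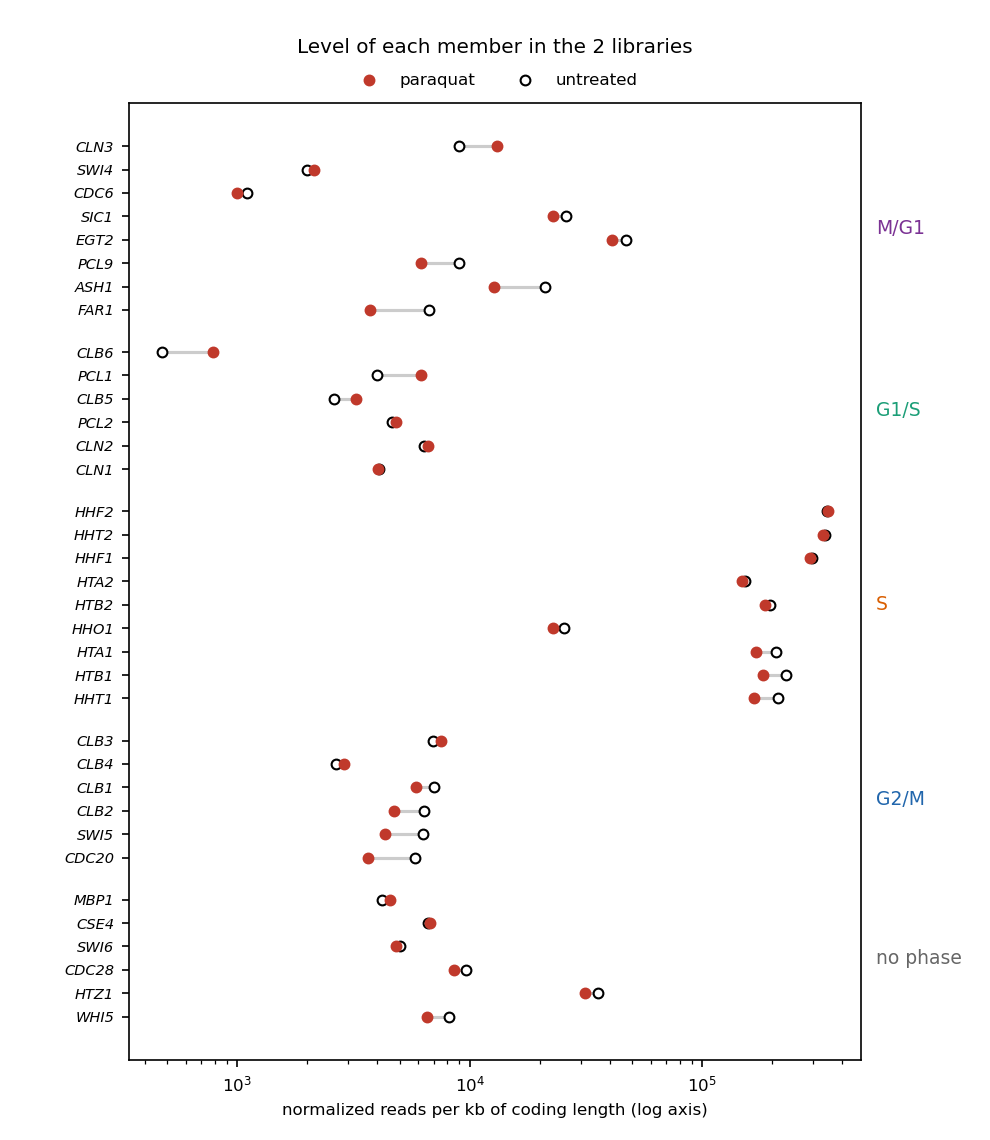
Normalized reads per kb of coding length for each member, on a log axis, in paraquat (filled red) and untreated cells (open). The S phase core histones lie between 148044 and 347470 per kb in paraquat, far to the right of the cyclins, and the gap between the points is widest for FAR1, ASH1, CLB6 and CDC20.

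Per kb of coding length, HHF2 was the most abundant member and CLB6 the least in both libraries. HHF2 stood at 347470 normalized reads per kb in paraquat and 343302 in untreated cells, and CLB6 at 784.5 in paraquat and 474.2 in untreated cells. The 8 core histone genes filled the first 8 places in both libraries, and EGT2, HTZ1 and SIC1 followed in places 9, 10 and 11. Among regulators the largest move in this order was that of PCL1, which stood in place 20 in paraquat and in place 30 in untreated cells. FAR1 stood in place 29 in paraquat and in place 20 in untreated cells. CLN3, at 13068 normalized reads per kb in paraquat and 8972 in untreated cells, was the member cyclin with the highest level in paraquat. In untreated cells PCL9 held that rank with 8999, and its 95% Poisson interval from 8797 to 9205 includes the level of CLN3.

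Core histones, the proteins that wrap DNA, are made from 8 genes in 4 divergent pairs, HTA1 with HTB1, HTA2 with HTB2, HHT1 with HHF1 and HHT2 with HHF2. Their log2 ratios ran from -0.35 to 0.02, and 3 genes accounted for the low end. HHT1, an H3 gene, had 68660 normalized reads in paraquat and 87224 in untreated cells, 1.27-fold lower (1.26 to 1.28). HTB1, an H2B gene, had 72247 in paraquat and 91036 in untreated cells, a log2 ratio of -0.33 (-0.35 to -0.32). HTA1, an H2A gene, had 68030 in paraquat and 83110 in untreated cells, 1.22-fold lower (1.21 to 1.23). The other core genes lay within 1.05-fold. HTA2 had 59069 normalized reads in paraquat and 61108 in untreated cells, and HTB2 had 74007 in paraquat and 77352 in untreated cells. HHT2 had 136237 in paraquat and 138354 in untreated cells. The H4 gene HHF1 had 90360 in paraquat and 92708 in untreated cells, and HHF2 had 108411 in paraquat and 107110 in untreated cells.

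The lower value thus covered both genes of the HTA1 and HTB1 pair, which differed from each other by 0.04 on the log2 scale. In the pair of HHT1 and HHF1 the genes differed by 0.31. Every core histone gene lies in the highest class of mean level, whose median log2 ratio was -0.31. HTA1, HTB1 and HHT1 were 0.03, -0.02 and -0.03 from that median, and the other 5 were 0.25 to 0.33 above it. Scaled to total gene reads, HTA1, HTB1 and HHT1 stood at -0.03, -0.07 and -0.09, and the other 5 between 0.20 and 0.28.

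**Figure D3:**
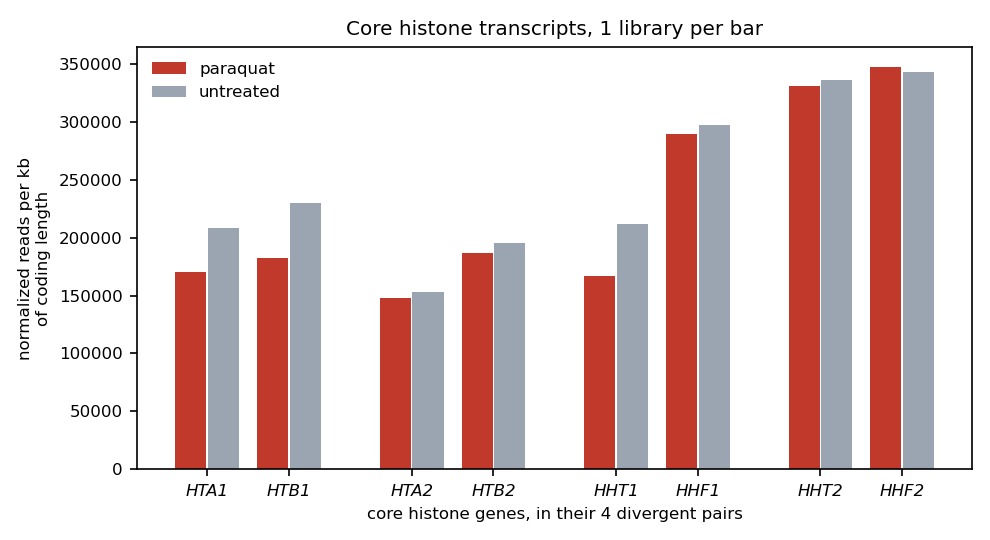
Normalized reads per kb of coding length of the 8 core histone genes, arranged as their 4 divergent pairs, with paraquat in red and untreated in grey and 1 library per bar. HTA1, HTB1 and HHT1 have visibly lower paraquat bars, at 170502, 182443 and 167057 per kb, against 208297, 229888 and 212223 per kb in untreated cells.

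Histone paralogs share most of their sequence, which limits how reads can be split between them. Between the 2 genes of a type the coding sequences were 93.7% identical for HTA1 and HTA2, 87.9% for HTB1 and HTB2, 93.2% for HHT1 and HHT2 and 97.4% for HHF1 and HHF2. The H3 and H4 genes encode identical proteins in each pair, while the H2A proteins differ at 2 and the H2B proteins at 4 positions. The stretch shown next is the longest run shared by HHF1 and HHF2, 80 bases from base 91 of the coding sequence in R64, and a read lying wholly within it cannot tell them apart.

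HHF1 and HHF2: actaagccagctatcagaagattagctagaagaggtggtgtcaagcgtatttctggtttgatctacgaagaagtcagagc

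How reads that fit both copies were counted is not given in the sources used here, so the shares of single histone genes are uncertain. If such reads were dropped, the sums and the comparison between histone types are uncertain as well. HHT1 held 33.5% of H3 reads in paraquat (33.3 to 33.7) and 38.7% in untreated cells (38.5 to 38.9). HTB1 held 49.4% of H2B reads in paraquat and 54.1% in untreated cells, and HTA1 held 53.5% of H2A reads in paraquat and 57.6% in untreated cells. HHF1 held 45.5% of H4 reads in paraquat and 46.4% in untreated cells. Summed over both genes of a type and per kb, the log2 ratio was -0.20 for H2B, -0.18 for H2A, -0.14 for H3 and -0.01 for H4. H4 therefore made up 34.9% of core histone reads per kb in paraquat and 32.4% in untreated cells.

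Histones outside the core set lay close to the median gene. HHO1, the linker histone, had 17747 normalized reads in paraquat and 19712 in untreated cells, a log2 ratio of -0.15. HTZ1, the H2A variant found beside promoters, had 12691 in paraquat and 14385 in untreated cells, a log2 ratio of -0.18. CSE4, the H3 variant of the centromere, had 4665 in paraquat and 4554 in untreated cells, and its interval from 0.98-fold to 1.07-fold includes equality. Over all 11 histone genes the median log2 ratio was -0.06, with HHT1 and HTB1 past the lower threshold on the low side, where 17.0% of all genes stood.

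Members of the G2/M group stood on both sides of the median gene. CLB3 and CLB4, B-type cyclins of S and G2 that act on the spindle, lay above 0, and the later cyclins CLB1 and CLB2 below it. CLB3 had 9681 normalized reads in paraquat and 8883 in untreated cells, 1.09-fold higher (1.06 to 1.12). CLB4 had 3967 in paraquat and 3664 in untreated cells, 1.08-fold higher (1.03 to 1.13). CLB1 had 8352 in paraquat and 9960 in untreated cells, 1.19-fold lower (1.16 to 1.23). CLB2, the main cyclin of mitosis, had 6944 in paraquat and 9399 in untreated cells, 1.35-fold lower (1.31 to 1.40). The 6 B-type cyclin genes thus ran from CLB6 (0.73) and CLB5 (0.32) through CLB3 (0.12) and CLB4 (0.11) to CLB1 (-0.25) and CLB2 (-0.44) on the log2 ratio scale, which follows the known order of their peaks. No test of this order was made. Among these 6, CLB1 alone changed sign when scaled to total gene reads, to 0.0050, whereas CLB2 stayed below 0 at -0.18.

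CDC20 and SWI5 were the lowest of the G2/M members. CDC20, the activator that turns the anaphase-promoting complex on securin and mitotic cyclins, had 6681 normalized reads in paraquat and 10615 in untreated cells. It was 1.59-fold lower (1.54 to 1.64). SWI5, the factor that switches on genes at mitotic exit, had 9205 in paraquat and 13403 in untreated cells, 1.46-fold lower (1.42 to 1.495). Scaled to total gene reads their log2 ratios were -0.41 for CDC20 and -0.28 for SWI5.

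Members that peak between M and G1 lay on both sides of 0, and 6 of 8 were below it. ASH1, a repressor made in daughter cells, had 22366 normalized reads in paraquat and 37119 in untreated cells. It was 1.66-fold lower (1.63 to 1.69). PCL9, a Pho85 cyclin known as a Swi5 target, had 5648 in paraquat and 8234 in untreated cells, 1.46-fold lower (1.41 to 1.51). EGT2, a cell wall protein of mother and daughter separation, had 127354 in paraquat and 147430 in untreated cells, 1.16-fold lower (1.15 to 1.17). EGT2 lies in the highest class of mean level and was 0.10 above the median of that class. CDC6, whose product loads the helicase at origins, had 1533 in paraquat and 1703 in untreated cells, 1.11-fold lower (1.04 to 1.19). CLN3 and SWI4 were the members of this interval above 0, with the values given above.

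**Figure D4:**
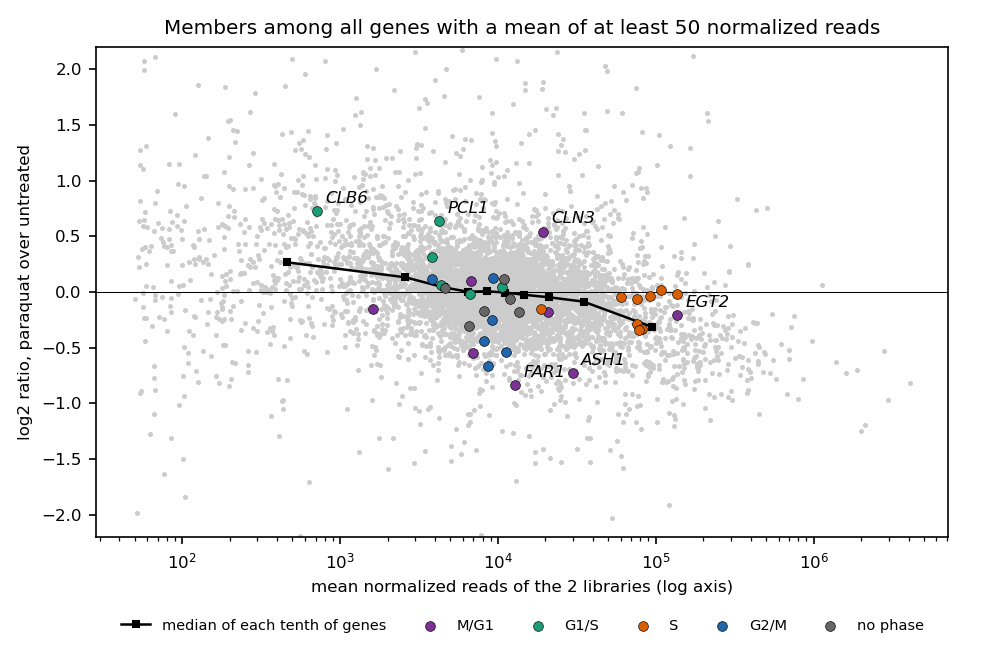
Log2 ratio of paraquat over untreated against the mean normalized reads of the 2 libraries (log axis), for all genes with a mean of at least 50 (grey) and the 35 members (coloured by phase). The black line joins the medians of 10 classes of mean level, from 0.27 to -0.31, and 22 genes lie beyond the vertical limits. CLB6, PCL1 and CLN3 lie above the line and FAR1 and ASH1 below it.

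Genes of the cycle outside the 35 members were described from lists of known function. The lists were chosen with earlier results of these data known, so they are no independent check on the members. Of 35 other G1/S targets of SBF and MBF, 30 lay above 0, where 49.7% of all genes did. Past 0.322 on the log2 scale 16 were higher and 0 lower, against 17.1% of all genes higher and 17.0% lower. Their median log2 ratio was 0.25, and 29 of them lay above the median of their own class of mean level. PLM2, a target linked to the DNA damage response, had 4025 normalized reads in paraquat and 1934 in untreated cells, the 1 gene of this list past 2-fold. RFA1, a subunit of the factor that coats single-stranded DNA, was its lowest gene, with 8734 normalized reads in paraquat and 9965 in untreated cells.

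The genes listed under the CLB2 cluster of G2/M lay below 0 as a list, at a median of -0.21 over 14 genes. Of these, 11 were negative, where 50.3% of all genes were. Past the lower threshold stood 6 genes on the low side, against 17.0% of all genes, and 0 on the high side, against 17.1%. SPO12, a positive regulator of mitotic exit, had 5566 normalized reads in paraquat and 12004 in untreated cells, 2.16-fold lower. YHP1, a repressor of M to G1 genes, was the highest of the list, with 6292 in paraquat and 5176 in untreated cells. When scaled to total gene reads the median of this list was 0.05 and that of the G1/S targets 0.51.

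Genes that part daughter from mother cells went both ways, with a median log2 ratio of 0.08 over 12 genes, 5 of them past the threshold of 0.322 on the high side and 2 on the low side, where 17.1% and 17.0% of all genes stood. Relative to the median of their own class of mean level their median was 0.31, with 9 of 12 above 0, and scaled to total gene reads it was 0.34. PRY3, a cell wall protein of daughter cells, had 104447 normalized reads in paraquat and 49408 in untreated cells, 2.11-fold higher. CHS1, a chitin synthase that mends the wall at separation, was the lowest, with 44108 in paraquat and 83180 in untreated cells, 1.89-fold lower. The other genes past the threshold were DSE2 (0.93), DSE1 (0.70), SCW11 (0.66) and CTS1 (0.64), which encode cell wall or separation proteins, and RME1 (-0.48), a repressor of meiosis.

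In the list of the MCM helicase and origin licensing, 4 of 14 genes were lower past the threshold, against 17.0% of all genes, and 1 higher, against 17.1%, with a median of -0.02. The lower genes were the helicase subunits MCM3 (-0.46), MCM5 (-0.46), MCM2 (-0.41) and MCM7 (-0.37), and the higher was ORC3 (0.39), a subunit of the origin recognition complex. Cell cycle transcription factors had a median of 0.06 over 12 genes, from MCM1 at -0.57 to HCM1 at 0.47. Past the threshold 3 were higher (HCM1, TOS4 and YOX1, all also on the G1/S list), against 17.1% of all genes. MCM1 was lower, against 17.0%. MCM1, a partner of the forkhead factors at mitotic genes, had 19468 normalized reads in paraquat and 28900 in untreated cells. HCM1, a forkhead factor of S phase, had 6978 in paraquat and 5035 in untreated cells. The list of 20 genes of the anaphase-promoting complex and the spindle checkpoint had a median of 0.12, from APC9 at -0.37 to BUB1 at 0.57. Past the threshold 5 genes were higher (BUB1, PDS1, BUB3, ESP1 and APC4), against 17.1% of all genes. APC9 was lower, against 17.0%.

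Regulators and chaperones of histones had a median log2 ratio of 0.01 over 20 genes. Past the threshold stood SPT21 on the high side, against 17.1% of all genes, and 0 genes on the low side, against 17.0%. SPT21, which activates histone genes in S phase and is itself a G1/S target, had 5262 normalized reads in paraquat and 3569 in untreated cells. SPT6, a histone chaperone of elongating polymerase, was the lowest at -0.27. Genes that control Cdc28 or cyclin stability had a median of -0.09 over 17. They ran from BCK2, an activator of G1 genes, at -0.29 to HSL1, a kinase of the bud neck, at 0.50. HSL1 and SWE1 (0.45), both also on the G1/S list, were past the threshold on the high side, against 17.1% of all genes. On the low side stood 0 genes, against 17.0%. Among 7 other Pho85 cyclins PCL5 was the highest at 0.59 and PCL8 the lowest at -0.66, and PCL6 (-0.35) and PCL7 (-0.33) passed the threshold as well. That makes 1 higher, against 17.1% of all genes, and 3 lower, against 17.0%.

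**Figure D5:**
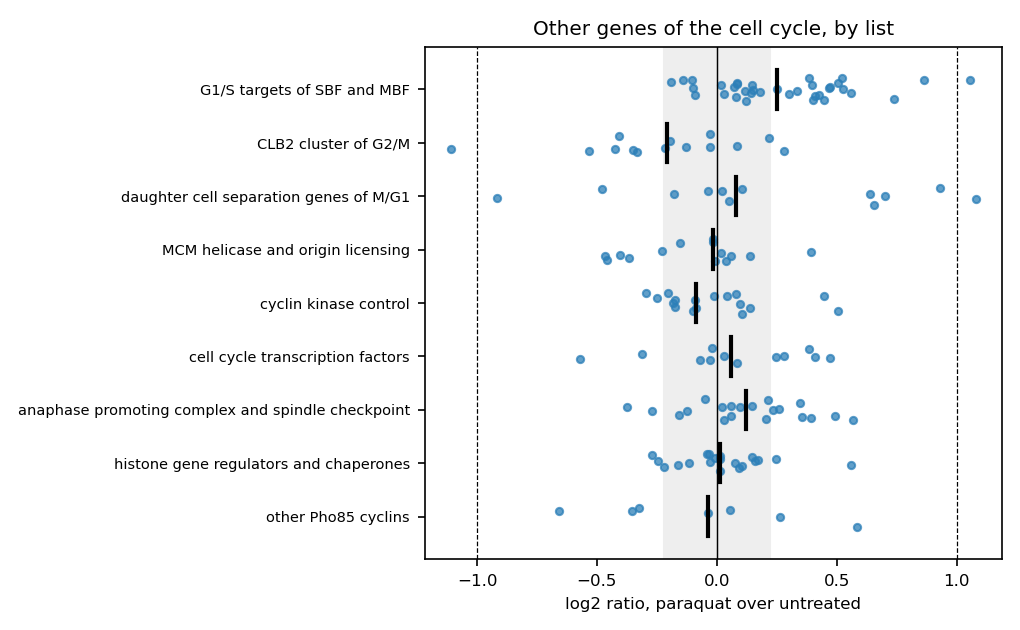
Log2 ratio of paraquat over untreated for other genes of the cycle, 1 point per gene, by list, with black bars at the medians. The grey band holds the middle 50% of all genes, from -0.22 to 0.22, and dashed lines mark 2-fold. The median of the G1/S targets is 0.25 and that of the CLB2 cluster -0.21.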

How the data were processed

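The deposited table gives each gene 1 normalized signal in each library, and its values behave as read counts over a size factor. All of them are whole multiples, within 0.01 read, of 1 step per column, which is 0.913 normalized units in paraquat and 1.10 in untreated. The authors' log2 fold change is the log2 ratio of these columns, and the p-values are theirs, per the file headers. Tools given in the submitters' processing notes, without roles, are STAR 2.5.2b, Trimmomatic 0.36, DESeq2, featureCounts and Subread 1.5.2.

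The 1 row without a name (0.00675% of paraquat and 0.00449% of untreated reads) was left out. Groups follow the treatment label. Members and lists were chosen with earlier results of these data known. Of the lists, 1 gene is not reported here. All 35 members are named, and from each list the highest, the lowest and those past 2-fold, while other list genes were chosen after their values were seen. With 1 library per group no count test was run, and genes were counted past 2-fold, 1.5-fold and a log2 ratio of 0.322. Intervals take reads as independent, which PCR copies are not. RefSeq R64 gave upstream sequence, coding lengths (all 35 matched) and copies (at least 95% identity over at least 80% of length, BLAST+ 2.17.0), which among members were HHF1 and HHF2. No member overlaps another annotated gene. Alternatives were scaling, centring, a pseudocount of 10, no minimum mean, means and other member sets. Python 3.11.15, scipy 1.17.1, pandas 2.3.3, numpy 2.4.6, biopython 1.88 and matplotlib 3.10.9 were used. Folds and intervals were tested on data simulated with counting error only, without a spread between cultures.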

Additional observations from a re-analysis of the deposited data

How the results depend on the processing

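The count of members 2-fold apart was 0 under each alternative scaling, centring, pseudocount, minimum mean and interval rule, and 5 at 1.5-fold in place of 2-fold. The count past 0.322 on the log2 scale lay between 10 and 11 throughout, but its split depended on the scaling and the centring, as given above. Scaled to total gene reads, median log2 ratios moved to 0.15 for regulators, 0.20 for histones, 0.062 for M/G1, 0.45 for G1/S, 0.20 for S, -0.086 for G2/M and 0.14 for members with no phase, and 13 of 35 members changed sign, none of them past 0.322 before. Centred on the class of mean level, histones moved to 0.026 and S members to 0.25. As means, histones stood at -0.13, M/G1 at -0.25, G1/S at 0.29, S at -0.14 and G2/M at -0.28. Without the member farthest from 0, G1/S stood at 0.063, G2/M at -0.25 and members with no phase at -0.064. Without HHF1 and HHF2, histones and S members stood at -0.15. With CLB3 and CLB4 left out, G2/M stood at -0.49. Leaving out a replicate was not possible with 1 library per group. Among the members the counting interval was narrowest for EGT2 and widest for CLB6, and the spread between cultures is unknown.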

Other observations

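Cyclin genes of opposite phase lie side by side in the genome. CLB6 and CLB1 converge with 307 bases between their coding sequences, and CLB5 and CLB2 converge with 746. In each pair the S phase cyclin lay above 0 and the mitotic cyclin below it, with a difference of 0.98 on the log2 scale between CLB6 and CLB1 and of 0.75 between CLB5 and CLB2. Among 1474 convergent pairs of neighbours, 7.39% were at least as far apart as CLB6 and CLB1, and 14.1% as far as CLB5 and CLB2, with a median distance of 0.28. These shares take no account of the trend with mean level. Relative to the median of their own class of mean level, CLB6 stood at 0.46 and CLB1 at -0.26, and CLB5 at 0.27 and CLB2 at -0.44. Opposite signs were found in 46.7% of convergent pairs.

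The divergent histone pairs were mostly close. HTA1 and HTB1 differed by 0.04 on the log2 scale, HTA2 and HTB2 by 0.01, and HHT2 and HHF2 by 0.04, where 91.4%, 96.9% and 92.5% of 1464 divergent pairs lay at least that far apart. HHT1 and HHF1, at 0.31, were near the median distance of 0.28.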
